A study of Homo sapiens with 12 samples.

Results

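Long intergenic non-coding RNAs (lincRNAs) were examined in HepG2 cells, a human liver cancer line, and Ls174 cells, a human colon cancer line, with and without an extract of the red seaweed Hypnea musciformis (HME). The 181 lincRNAs described here are the genes that the deposited tables give the biotype lincRNA and that hold 100 or more counts over the 12 libraries together, out of 7109 lincRNA genes, of which 1938 had any count, and out of 57736 genes in all. A further lincRNA was left out by its name. They were chosen on their total counts over all libraries, so that having a count is not a result, and a gene used in 1 cell line had to be high there to be included. The members just inside the limit were RP13-977J11.2 and U47924.30 with 100 counts each and AC137934.1 with 101, and the lincRNAs just outside were CTD-3195I5.1 with 98 and RP1-80N2.3 and RP11-498C9.15 with 99 each.

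HepG2 and Ls174 cells, both labelled WT, were either left untreated or given HME for 24 h, at 0.7 mg/ml according to the sample labels. Each of the 4 groups (HepG2 control, HepG2 HME, Ls174 control and Ls174 HME) had 3 libraries, which the study's methods describe as biological replicates, and each tissue was represented by a single line. RNA was measured with 3′ libraries, in which a read comes from next to the poly(A) tail of a transcript, so that long and short transcripts give similar numbers of reads. Levels are CPM, counts scaled to a common library size after TMM correction for library composition, given as mean ± SD of 3 libraries. Since these are bulk cultures, fewer cells of a kind and less RNA per cell cannot be told apart.

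LincRNAs are transcribed by RNA polymerase II from stretches between coding genes, and most are capped, spliced and polyadenylated like messenger RNA without coding for a long protein. As a class they are known for low levels and for use in few cell types. Some act as RNA, such as NORAD, which binds the Pumilio proteins in the cytoplasm, or NEAT1, the scaffold of nuclear paraspeckles, while others are mainly carriers whose introns or exons give rise to small nucleolar RNAs (snoRNAs) or microRNAs (miRNAs).

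Libraries held between 1790841 and 3656662 counts. HepG2 control 2 and Ls174 control 1 stood apart from the other controls of their line, with chi-square values of 34.5 to 54.1 for each degree of freedom against them, where the other pairs of replicates gave 4.44 to 24.5. The summed level of 10 liver marker genes was 19390 to 23646 CPM in HepG2 control libraries and 22.3 to 186 CPM in Ls174 control libraries, and that of 10 colon epithelium markers was 121 to 402 CPM and 823 to 1069 CPM, so that the labels and the markers of each line went together. HepG2 HME 2 also held mesenchymal transcripts, with a summed level of 8 markers of 1088 CPM against 48.3 and 51.0 CPM in the other HME libraries and 27.2 to 88.4 CPM in HepG2 controls. Of 7 blood cell markers 5 had counts, and their summed level was 196 to 734 CPM in HepG2 control, 511 to 658 CPM in HepG2 HME and 0.475 to 5.95 CPM in Ls174 libraries, mainly from LYZ and CD74, with PTPRC and CD3E at 0. Counts were found for 2 of the 4 endothelial markers in the tables, with a summed level of at most 4.23 CPM (HepG2 control 2) and KDR and EMCN at 0. The part of these transcripts in the results was not tested.

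The 181 lincRNAs were a small part of each library. They held 96538 counts in all, and their share of a HepG2 library was 0.275% ± 0.0157 (SD, n = 3) without and 0.317% ± 0.0224 with HME. For Ls174 cells the shares were 0.303% ± 0.0259 and 0.292% ± 0.00449. The median lincRNA had 202 counts over the 12 libraries, 88 had fewer than 200, and the 10 most abundant took 41.0% of the counts. These 10 were MIR4435-1HG, SNHG8, LINC00657, SNHG9, LINC00152, NCBP2-AS2, RP11-304L19.5, EPB41L4A-AS1, RP11-14N7.2 and LINC00493. Between 144 and 175 lincRNAs had a count in a given library, and 117 had a count in all 12. They were spread over 22 chromosomes, with the largest numbers on chromosomes 1 (24), 16 (17) and 17 (16).

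Much of the lincRNA count in treated HepG2 cells lay on a single pair. MIR4435-1HG and LINC00152 together took 5.52%, 8.80% and 8.22% of the lincRNA counts in HepG2 controls 1, 2 and 3, and 29.7%, 29.2% and 36.1% in HepG2 HME 1, 2 and 3. In the 6 Ls174 libraries they took between 1.91% and 2.98%. Without the pair, the other 179 lincRNAs held 0.254% ± 0.0169 of the counts in HepG2 control and 0.216% ± 0.00651 in HepG2 HME libraries, so that the order of these groups was the opposite of that with the pair included. The same share in Ls174 cells was 0.296% ± 0.0250 without HME and 0.283% ± 0.00398 with it.

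**Figure D1:**
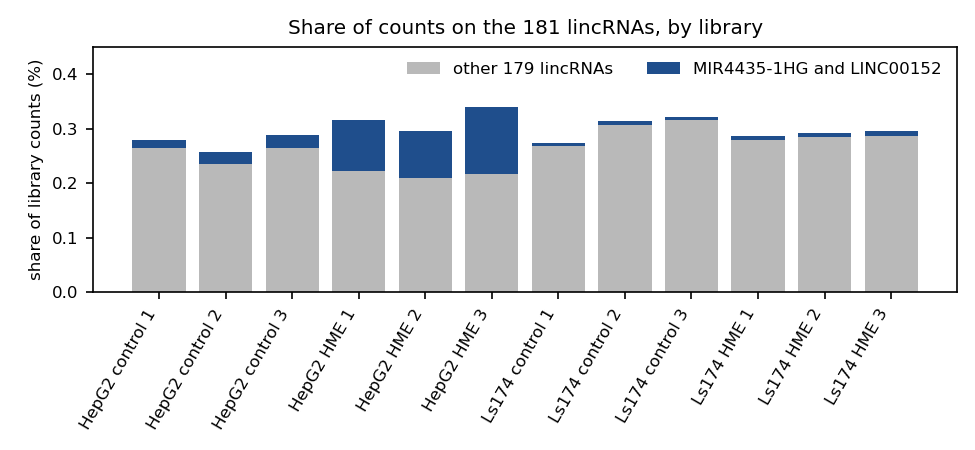
Share of the counts of each library (y axis, %) that fell on the 181 lincRNAs, for the 12 libraries on the x axis; the blue part of each bar is MIR4435-1HG and LINC00152 and the grey part is the other 179. The blue part is largest in the 3 HepG2 HME libraries, where the pair took 29.2% to 36.1% of the lincRNA counts.

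The name lincRNA comes from an annotation that has since been revised, and not every member is an independent non-coding gene. Compared with the GENCODE v44 annotation placed on the same build (GRCh37), 142 of the 181 gene identifiers were found, of which 115 were lncRNA and 9 lincRNA, 10 were protein-coding, 4 were snoRNA and 4 were transcribed pseudogenes. The 10 that are now coding include LINC00493, now SMIM26, NCBP2-AS2, now NCBP2AS2, LINC00675, now TMEM238L, LINC00176, now C20orf204, and C11orf95, now ZFTA. For 37 lincRNAs the main counted region lay on an exon of a coding gene of the same strand (18) or began within 10 bases past the end of such a gene (19), and 31 of these 37 identifiers were not in v44. Counts of these 37 can be reads from the last exon of the coding gene, and the part this played was not tested. Most lincRNAs rested on 1 place: 106 had counts in a single 3′ region and 134 had 90% or more of their counts in the main region, whose median width was 197 bases.

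Reads were assigned by strand as far as the overlapping genes show. The main region of SNHG8 shares 180 bases with PRSS12 on the opposite strand and held 5642 counts, against 8 for the PRSS12 region. That of EPB41L4A-AS1 shares 98 bases with EPB41L4A and held 2551 counts, against 0 on the other strand.

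The canonical signal for adding a poly(A) tail, AATAAA, and its common variant ATTAAA were looked for in the central 197 bases of the main regions, because 3′ libraries start at poly(A) tails. One or the other was found on the sense strand in 38 of 181 lincRNAs (21.0%) and on the opposite strand in 51 (28.2%). Among 10867 coding genes with 100 or more counts the shares were 33.3% on the sense and 28.1% on the opposite strand. A match to a hexamer does not show that it works as a signal, which was not tested. Nor does the lack of a match show that there is no signal, since one upstream of the region would be missed. Of the main regions, 39 lay past the annotated end of their gene. Neither hexamer was found in the main regions of the lincRNAs that fell with HME at an adjusted p under 0.05 in either line. Only lincRNAs that have a hexamer are printed, as some of those that the results below turn on. The last hexamer in the whole main region is in capitals, 5′ to 3′ (GRCh37). It can lie outside the central bases, as that of TP53TG1 does.
SNHG15 (chr7:45022629-45022658, minus strand): caagggatatttAATAAAtatggatttaaa
HULC (chr6:8654200-8654229, plus strand): tttggaaggtgaAATAAAtgtaaacattct
SNHG9 (chr16:2015474-2015503, plus strand): ccacgtctttcaAATAAAgctgttttgtct
TP53TG1 (chr7:86954621-86954650, minus strand): taattttggcaaAATAAAtaacttatggta
LINC00152 (chr2:87820998-87821027, plus strand): cccttgtccttcATTAAAagcaaaactaaa
MIR4435-1HG (chr2:112186896-112186925, minus strand): cccttgtccttcATTAAAagcaaaactaaa
The last 2 are the same sequence at different places of chromosome 2.

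Near-identical copies limit what a single gene's count means here. At 95% identity over 90% of the main region, 34 of the 181 lincRNAs had another place in the genome, 17 of them an identical one, and for 19 the other place was another lincRNA of the set. The treatment of reads that align to several places is not given in the sources used here. The remaining 147 lincRNAs, among them SNHG8, LINC00657, SNHG15, AC084018.1, CTB-58E17.1 and RP11-252A24.7, had no such copy.

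LINC00152, now named CYTOR, and MIR4435-1HG, now MIR4435-2HG, are copies of each other on the 2 arms of chromosome 2. Both are spliced RNAs known from many tumours, where CYTOR is described as promoting growth and movement of cells, and MIR4435-1HG hosts a miRNA. Over the 302 aligned bases of the LINC00152 region (chr2:87820933-87821234, on its own exon) the genes differed at 3 positions, an identity of 99.0%. Counted from 1 at the 5′ start of the LINC00152 region, with its base first, these were A54G, T137A and C248T, so that only a read across one of them can tell the genes apart. They are shown in windows of 30 bases with the differing base in capitals.
LINC00152, position 54 (chr2:87820972-87821001, plus strand): tctggccagtctctAtgtgtcttaatccct
MIR4435-1HG (chr2:112186922-112186951, minus strand): tctggccagtctctGtgtgtcttaatccct
LINC00152, position 137 (chr2:87821055-87821084, plus strand): atctttaaacgctgTttgaaaggatatcga
MIR4435-1HG (chr2:112186839-112186868, minus strand): atctttaaacgctgAttgaaaggatatcga
LINC00152, position 248 (chr2:87821166-87821195, plus strand): ctcagccacgcttgCcttgctgcttctcat
MIR4435-1HG (chr2:112186728-112186757, minus strand): ctcagccacgcttgTcttgctgcttctcat

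The first question was which lincRNAs differed between HME-treated and untreated HepG2 cells. LINC00152 and MIR4435-1HG rose, AC084018.1 and CTB-58E17.1 fell, and no other lincRNA passed an adjusted p under 0.05 (edgeR's quasi-likelihood test, Benjamini-Hochberg adjustment over all 11343 genes tested). Of the 181 lincRNAs, 124 had enough counts to be tested and 57 had not. The 4 calls were 3.23% of the 124, next to 3.31% of all genes tested (2.77% higher and 0.538% lower), so that lincRNAs were called about as often as other genes. The study's methods name an unadjusted p under 0.05 from a binomial test together with a change beyond 0.58 on the log2 scale. Here and below these thresholds are applied to the p of edgeR's quasi-likelihood test, so the calls are not those of the study. At these thresholds 16 lincRNAs were higher and 21 lower with HME, together 29.8% of those tested against 22.2% of all genes (11.3% higher and 10.9% lower). Of the 16, 10 were classed as non-coding and 4 as snoRNA, with SNORD3D, a near-copy of these snoRNA genes, among the non-coding. Of the 21, 12 were non-coding, 4 lay on or directly past a coding exon and 3 are now coding genes. Among the 124 tested, 78 were non-coding, 25 lay on or directly past a coding exon, 7 are now coding genes and 4 were snoRNA. The groups of 3 libraries did not overlap for 44 lincRNAs (35.5%, against 30.6% of all genes). The median log2 fold change was -0.21 over the lincRNAs tested and -0.04 over all genes tested. Another scaling moved the median of all genes, to -0.20 with library size alone and to -0.11 with the upper quartile.

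The count of 4 depended on single libraries. It was 15 without HepG2 control 2, the control that stood apart, 2 without HepG2 HME 1, and 1 without HepG2 HME 2, HepG2 HME 3 or HepG2 control 3. LINC00152 passed in all 6 fits that left out a library.

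**Figure D2:**
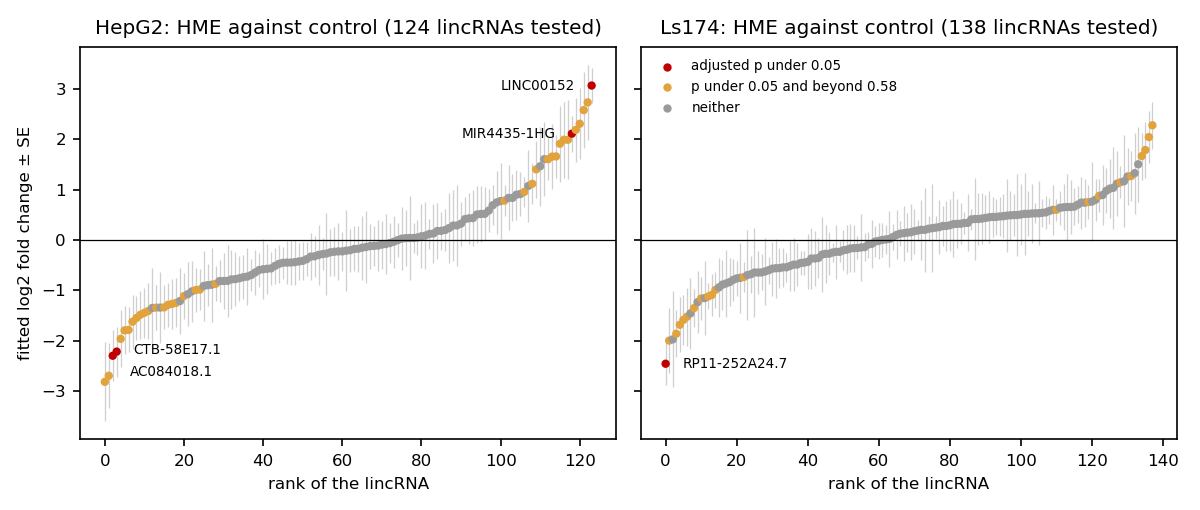
Fitted log2 fold change of HME against control (y axis, ± SE, 3 libraries a group) of each tested lincRNA, ranked from lowest to highest (x axis), in HepG2 (left, 124 lincRNAs) and Ls174 cells (right, 138). Red points passed an adjusted p under 0.05 (4 in HepG2, 1 in Ls174) and yellow points passed only the thresholds of the study.

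LINC00152 showed the largest increase. Its level was 38.2, 54.4 and 58.7 CPM in HepG2 controls 1, 2 and 3, and 384, 406 and 465 CPM in HepG2 HME 1, 2 and 3. The groups were far apart, and the lowest treated library stood above the highest control. The mean went from 50.4 ± 10.8 to 418 ± 41.9 CPM, an 8.41-fold rise (log2 fold change 3.07, SE 0.34, adjusted p = 0.0022). MIR4435-1HG had 115, 202 and 178 CPM in the controls and 649, 676 and 808 CPM with HME. These groups did not overlap either, and the rise was 4.33-fold (log2 fold change 2.11, SE 0.36, adjusted p = 0.014). Its adjusted p was 0.0526 without HepG2 HME 1, 0.0512 without HME 2, 0.0803 without HME 3 and 0.0608 without control 3, with log2 fold changes between 2.00 and 2.21 in these fits.

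The balance within the pair also differed. LINC00152 held 25.0%, 21.2% and 24.74% of the counts of the pair in HepG2 controls and 37.2%, 37.5% and 36.5% in HepG2 HME libraries. All 3 treated libraries were above all 3 controls, with means of 23.6% ± 2.14 and 37.1% ± 0.505. As a read that crosses none of the 3 differing bases could have come from either gene, the counts of the pair were also summed to 1 gene in the same fit, a choice made after seeing the data. The sum rose from 216 ± 55.1 to 1129 ± 127 CPM (log2 fold change 2.40, SE 0.36, adjusted p = 0.00794). In the HME library with mesenchymal transcripts, HepG2 HME 2, LINC00152 stood at 406 CPM, between the other treated libraries, and without it the log2 fold change was 3.12 (adjusted p = 0.00895).

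AC084018.1, now LINC01089, fell. Its level was 22.2, 22.3 and 41.0 CPM in the controls and 9.90, 2.85 and 4.05 CPM with HME. No treated library reached the lowest control, and the means were 28.5 ± 10.8 and 5.60 ± 3.77 CPM (log2 fold change -2.30, SE 0.50, adjusted p = 0.040). It lies on chromosome 12 (chr12:122232976-122233182, minus strand, on its own exon) inside the span of RHOF, a coding gene of the same strand, whose log2 fold change was 1.47 (SE 0.38, adjusted p = 0.0668). The adjusted p of AC084018.1 was 0.0599 to 0.178 without HepG2 HME 2, HME 3, control 1 or control 3.

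CTB-58E17.1 fell from 8.41, 7.85 and 13.1 CPM to 1.58, 1.78 and 2.90 CPM. The groups did not overlap, at a low level of 9.80 ± 2.90 and 2.09 ± 0.708 CPM (log2 fold change -2.22, SE 0.50, adjusted p = 0.0444). Its region (chr17:36861001-36861197, plus strand) begins 1 base past the end of an unnamed lncRNA and 329 bases before the coding gene MLLT6. Leaving out any library other than HepG2 control 2 took its adjusted p to between 0.0724 and 0.189, and with a replicate block it was 0.0781.

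**Figure D3:**
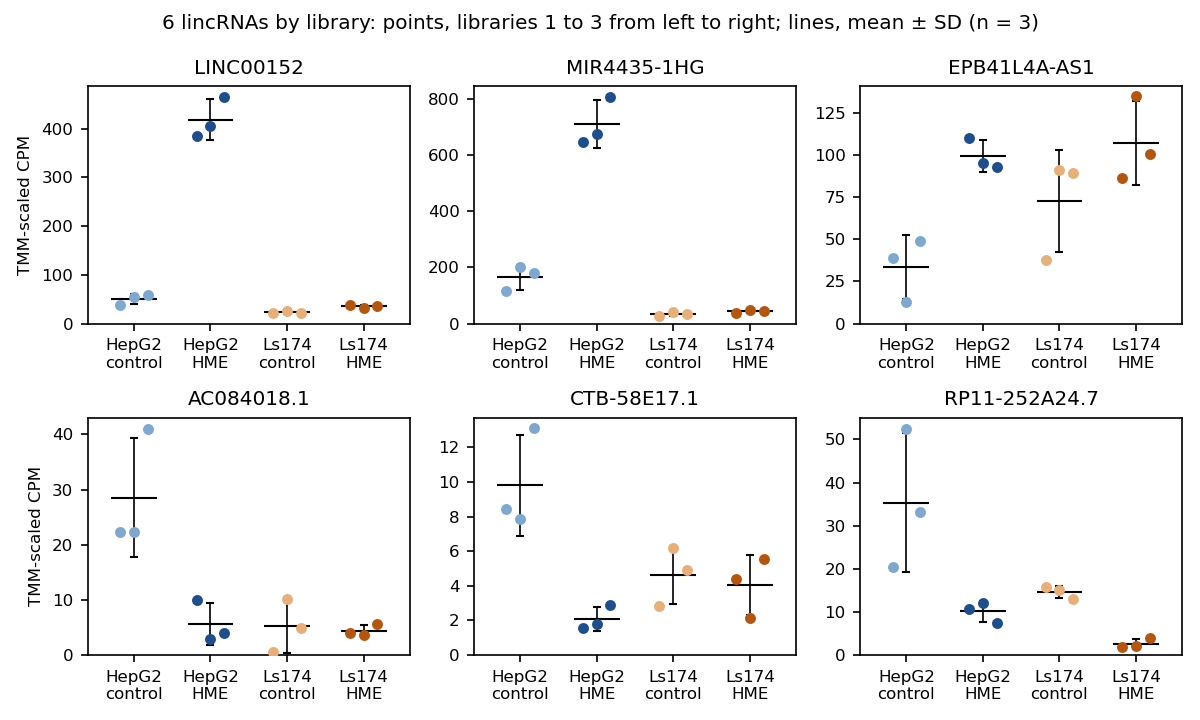
Levels (y axis, TMM-scaled CPM) of 6 lincRNAs in the 4 groups (x axis), with 1 point per library and lines for the mean ± SD of 3 libraries. LINC00152 and MIR4435-1HG stand highest in the HepG2 HME libraries, AC084018.1 and CTB-58E17.1 in HepG2 controls, and RP11-252A24.7 is lower with HME than without in each line.

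Hosts of snoRNAs are spliced RNAs whose introns carry the small RNAs that guide modification of ribosomal RNA. None of the members among them passed an adjusted p under 0.05 with HME in HepG2 cells. EPB41L4A-AS1 had 39.1, 12.7 and 49.2 CPM in the controls and 110, 95.4 and 93.2 CPM with HME, groups that did not overlap (log2 fold change 1.61, SE 0.42, adjusted p = 0.0709). SNORA76, now the snoRNA host SNHG25, which shares its region with SNORD104, stood at 7.59, 12.7 and 4.92 CPM and at 28.1, 26.7 and 23.2 CPM (log2 fold change 1.66, adjusted p = 0.0649). Both were past the thresholds of the study. SNHG8, the most abundant host, was almost level, with 143 ± 8.80 and 154 ± 27.005 CPM (log2 fold change 0.12, adjusted p = 0.831), and SNHG9 had a log2 fold change of -0.38 (adjusted p = 0.533). RP11-304L19.5, now SNHG19, went from 54.8, 199 and 98.9 CPM to 65.7, 44.5 and 38.2 CPM, and the groups overlapped (log2 fold change -1.27, adjusted p = 0.182).

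U3 is the snoRNA needed for the first cuts of the ribosomal RNA precursor, and 5 of its genes on chromosome 17 (SNORD3A, SNORD3B-1, SNORD3B-2, SNORD3C and SNORD3D) are among the 181 under the biotype lincRNA. Each has 4 other copies among the 5, at 95% identity or more, so they are given as a sum first. The summed level was 22.5, 51.9 and 3.28 CPM in HepG2 controls and 97.8, 79.0 and 119 CPM with HME. In Ls174 cells it was 4.75, 7.69 and 13.5 CPM without and 36.9, 38.4 and 32.6 CPM with HME. Every treated library stood above every control of its line. U3 is not polyadenylated in its mature form, and what the 3′ reads at these genes represent was not tested.

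The test of the sum, added after seeing the data, gave 1.92 on the log2 scale (SE 0.73, adjusted p = 0.173) in HepG2, where the controls spread widely, and of 2.01 (SE 0.35, adjusted p = 0.0388) in Ls174 cells, where the sum rose. No single U3 gene passed an adjusted p under 0.05. All 5 were past the thresholds of the study in HepG2 cells, with log2 fold changes from 1.66 (SNORD3D) to 2.31 (SNORD3C) and adjusted p values from 0.0908 to 0.182. In Ls174 cells 4 were past them, from 1.67 (SNORD3D, adjusted p = 0.163) to 2.28 (SNORD3B-2, adjusted p = 0.0706), and SNORD3C was not tested. The effects of HME on the sum did not differ detectably between the lines (log2 difference 0.06, SE 0.81, adjusted p = 1.00).

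**Figure D4:**
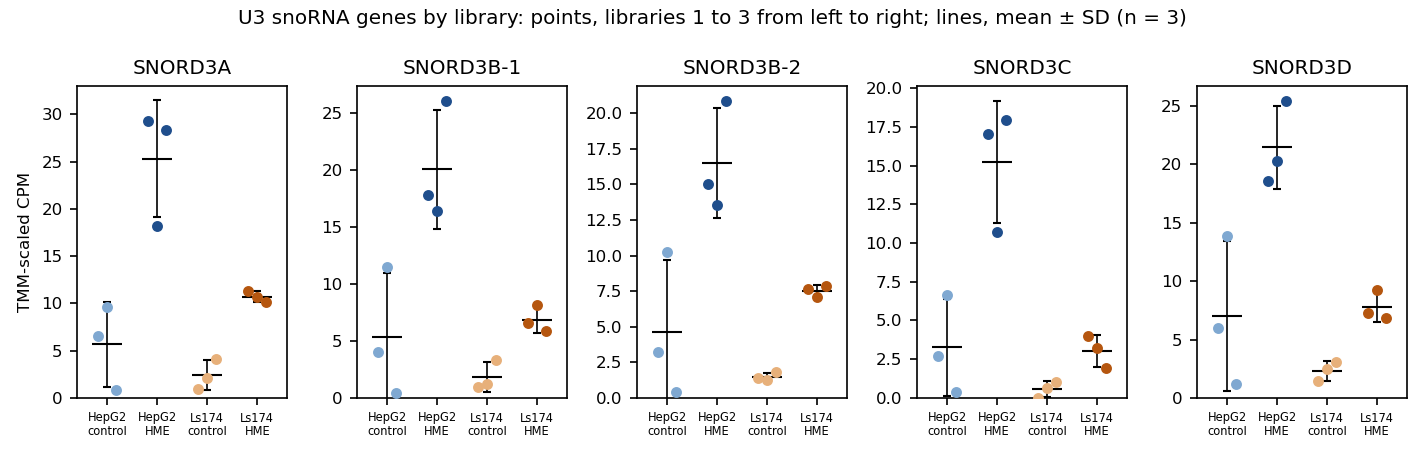
Levels (y axis, TMM-scaled CPM) of the 5 U3 genes in the 4 groups (x axis), with 1 point per library and lines for the mean ± SD of 3 libraries. In each panel the HME libraries of a line lie above its controls, and HepG2 control libraries spread widely.

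RNU11, annotated over the U11 RNA of the minor spliceosome and sharing its counted row with RP11-442N24__B.1, had 0.542, 1.81 and 3.28 CPM in HepG2 controls and 21.4, 9.26 and 4.63 CPM with HME. The groups did not overlap but the treated libraries differed widely (log2 fold change 2.74, SE 0.75, adjusted p = 0.0772).

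Cytoplasmic and nuclear lincRNAs of known function did not pass the test. LINC00657, now NORAD, was the third most abundant lincRNA, with 200, 235 and 213 CPM in HepG2 controls and 171, 116 and 111 CPM with HME. All treated libraries were under all controls (log2 fold change -0.70, SE 0.32, adjusted p = 0.232), and in Ls174 cells the log2 fold change was -0.45 (adjusted p = 0.45). Of the Pumilio proteins that NORAD binds, PUM2 had a log2 fold change of 0.76 (adjusted p = 0.185) in HepG2 cells, past the thresholds of the study only. MALAT1, of nuclear speckles, had a log2 fold change of 0.59 (adjusted p = 0.447), with 14.2 ± 7.72 CPM without and 21.2 ± 6.22 CPM with HME. NEAT1 stayed at 8.25 ± 7.04 and 8.17 ± 1.60 CPM (log2 fold change 0.03, adjusted p = 0.984). MALAT1 and the long form of NEAT1 end without a poly(A) tail, and how well 3′ libraries capture them was not tested.

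Of 3 lincRNAs tied in the literature to p53 that were tested in HepG2 cells, 0 passed an adjusted p under 0.05 with HME, and TP53TG1 and LINC00261, but not NEAT1, were lower at the thresholds of the study. TP53TG1 had 18.7, 28.99 and 12.3 CPM in the controls and 7.52, 8.90 and 6.95 CPM with HME, groups that did not overlap (log2 fold change -1.34, SE 0.44, adjusted p = 0.118). LINC00261, which lies downstream of the liver and gut factor gene FOXA2, had 161, 42.3 and 107 CPM and 21.0, 46.3 and 40.0 CPM, groups that overlapped through control 2 (log2 fold change -1.48, SE 0.48, adjusted p = 0.116). FOXA2 itself had a log2 fold change of 0.06 (adjusted p = 0.914). The summed level of the 10 liver markers was also lower with HME, at 13893 to 15210 CPM against 19390 to 23646 CPM, with 0 of the 10 at an adjusted p under 0.05 and 2 lower at the thresholds of the study, and its part in these values was not tested.

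Hosts of miRNAs carry a hairpin that is cut out of the primary transcript. For the hosts described here, 6 mature miRNAs are printed 5′ to 3′ with the seed, bases 2 to 8, in capitals (RefSeq, GRCh38.p14), since the seed sets which messages a miRNA binds. No seed occurs more than once among them.
hsa-miR-22-3p, of MIR22HG: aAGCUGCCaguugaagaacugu
hsa-miR-4435, of MIR4435-1HG: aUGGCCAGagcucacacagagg
hsa-miR-4458, of MIR4458HG: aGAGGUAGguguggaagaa
hsa-miR-24-3p, of MIR24-2: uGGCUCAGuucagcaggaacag
hsa-miR-27a-3p, of MIR24-2: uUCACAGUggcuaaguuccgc
hsa-miR-23a-3p, of MIR24-2: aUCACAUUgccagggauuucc
The libraries measured the host RNA and not the mature miRNAs. MIR22HG had 4.61, 3.62 and 5.33 CPM in HepG2 controls and 8.71, 6.41 and 10.4 CPM with HME, without overlap (log2 fold change 0.92, SE 0.44, adjusted p = 0.25). MIR4458HG had a log2 fold change of 0.20 in HepG2 cells (adjusted p = 0.806). In Ls174 cells it went from 7.13, 12.3 and 16.3 CPM to 26.6, 30.2 and 24.5 CPM, without overlap and past the thresholds of the study only (log2 fold change 1.15, SE 0.31, adjusted p = 0.155). MIR24-2, now MIR23AHG, was tested in Ls174 cells only among the HME comparisons (log2 fold change 0.45, adjusted p = 0.73).

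The other named lincRNAs past the thresholds of the study in HepG2 cells were mostly lower with HME. LINC00341, whose region lies at the end of SYNE3, had 11.7, 7.85 and 20.5 CPM in the controls and 0.396, 3.20 and 2.32 CPM with HME (log2 fold change -2.70, adjusted p = 0.0541). LINC00176, now the coding gene C20orf204, had 23.9, 93.0 and 30.4 CPM and 15.04, 10.3 and 12.7 CPM (log2 fold change -1.96, adjusted p = 0.0903). In neither did the groups overlap, as also in C11orf95, now ZFTA, with a log2 fold change of -1.80 (adjusted p = 0.0716). LINC00511, an RNA studied in tumour growth, had 16.8, 16.3 and 22.98 CPM and 37.6, 35.2 and 34.2 CPM (log2 fold change 0.96, adjusted p = 0.111). RP11-427H3.3, which begins 1 base past AAK1 and is named here because of its values, stood apart in 1 library, with 385 CPM in HepG2 HME 2 against 42.7 and 41.1 CPM in the other treated libraries and 31.6 to 43.4 CPM in the controls (log2 fold change 1.99, adjusted p = 0.181). In the same library COL1A1, which codes for a collagen chain, stood at 555 CPM against at most 6.15 CPM in any other library.

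In Ls174 cells, 1 lincRNA passed the test with HME, and it fell. Of 138 lincRNAs tested (43 were not), RP11-252A24.7 was called, 0.725% of those tested next to 1.18% of all genes (0.318% higher and 0.866% lower). At the thresholds of the study 9 were higher and 12 lower, together 15.2% against 12% of all genes (4.11% higher and 7.85% lower), and the groups did not overlap for 32 (23.2%, against 23.6%). The median log2 fold change was 0.15 over the lincRNAs tested and -0.003 over all genes. The count of 1 became 18 without Ls174 control 1, the library that stood apart, and 0 without any other library. Without Ls174 control 1, the calls at the thresholds of the study were 16 higher and 23 lower.

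RP11-252A24.7 had 15.7, 15.1 and 12.9 CPM in Ls174 controls and 1.82, 2.13 and 3.92 CPM with HME. The groups lay far apart (14.6 ± 1.45 and 2.62 ± 1.13 CPM, log2 fold change -2.46, SE 0.43, adjusted p = 0.0392). In HepG2 cells it had 20.3, 52.5 and 33.2 CPM and 10.7, 12.1 and 7.53 CPM, also without overlap (log2 fold change -1.79, SE 0.45, adjusted p = 0.0612). Its region (chr16:74481128-74481324, minus strand) begins 1 base past the end of GLG1, which codes for a Golgi glycoprotein, and its identifier is not in v44. GLG1 had log2 fold changes of -1.38 (SE 0.27, adjusted p = 0.0533) in Ls174 and -0.36 (SE 0.34, adjusted p = 0.568) in HepG2 cells, and no test of a difference between it and RP11-252A24.7 was made. How many of these reads belong to the GLG1 transcript was not tested.

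The other lincRNAs named for Ls174 cells were past the thresholds of the study only. CTC-444N24.11, on chromosome 19, 14494 bases past the zinc finger gene ZNF460, had 44.7, 29.8 and 34.2 CPM in the controls and 17.9, 16.0 and 16.6 CPM with HME (log2 fold change -1.12, SE 0.26, adjusted p = 0.0985). RP11-137H2.6, whose region overlaps the last bases of PRXL2A, had 32.8, 19.7 and 18.6 CPM and 11.3, 3.91 and 4.57 CPM (log2 fold change -1.86, adjusted p = 0.125), whereas PRXL2A had a log2 fold change of -0.14 (adjusted p = 0.859). RP5-1085F17.3, on an exon of EFCAB8, had a log2 fold change of -1.35 (adjusted p = 0.157) and RP11-121C2.2 one of -1.59 (adjusted p = 0.217), in both cases without overlap. JPX, a non-coding RNA of the X-inactivation centre, had a log2 fold change of 0.88 (adjusted p = 0.307) in Ls174 and of 0.69 (adjusted p = 0.329) in HepG2 cells. The summed level of the 10 colon markers was 709 to 760 CPM in HME-treated and 823 to 1069 CPM in control Ls174 cells. Of the 8 colon markers tested, 0 passed an adjusted p under 0.05 and 4 were lower with HME at the thresholds of the study, and their part in these values was not tested.

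The HME comparisons of the lines share no library, so their calls can be set side by side. At the thresholds of the study 7 lincRNAs were higher with HME in both lines, 43.8% of the 16 in HepG2 and 77.8% of the 9 in Ls174 cells. They were LINC00152, RP11-14N7.2, SNORA76, SNORD3A, SNORD3B-1, SNORD3B-2 and SNORD3D, of which the U3 genes are near-copies and not independent. LA16c-83F12.6, named here for its values, and RP11-252A24.7 were lower in both (2 lincRNAs, 9.52% of 21 and 16.7% of 12), and 0 of the 85 lincRNAs tested in both were called in opposite directions. Over all 9871 genes tested in both, 136 were higher in both (10.6% of those higher in HepG2 and 29.2% of those higher in Ls174 cells), 158 were lower in both (12.8% and 17.8%), and 44 and 18 were called in opposite directions. RP11-14N7.2 had a log2 fold change of 0.78 (adjusted p = 0.176) in HepG2 and of 0.75 (adjusted p = 0.368) in Ls174 cells.

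Whether the effect of HME differed between the lines was tested as an interaction on all 12 libraries, for 180 of the 181 lincRNAs. LINC00152 was called and no other (0.556%, next to 0.644% of all genes, 0.0307% higher in Ls174 and 0.613% lower). In Ls174 cells it had 20.9, 25.8 and 22.0 CPM without and 37.6, 32.3 and 35.9 CPM with HME, groups that did not overlap (log2 fold change 0.60, SE 0.22, adjusted p = 0.29). Its log2 fold change was lower there than in HepG2 cells by 2.46 on the log2 scale (interaction -2.46, SE 0.36, adjusted p = 0.00643). Leaving out each library in turn gave interactions from -2.23 to -2.57, with adjusted p values from 0.00361 to 0.0479. With a replicate block LINC00152 was not called (adjusted p = 0.0654). For MIR4435-1HG the interaction was -1.77 (SE 0.40, adjusted p = 0.0634), and for the sum of the pair it was -1.94 (SE 0.38, adjusted p = 0.0339), the latter a fit added after seeing the data. In Ls174 cells LINC00152 held 42.7%, 38.9% and 38.8% of the pair's counts without and 49.8%, 39.4% and 44.5% with HME, and the value for the sum was 0.45 on the log2 scale (SE 0.19, adjusted p = 0.355).

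Untreated cells of the lines were then compared with each other, a comparison that shares its libraries with both HME comparisons. LincRNAs found in one line and hardly in the other included SNHG15, LINC01123 and LINC01106 in Ls174 and HULC, LINC00176 and RP11-242J7.1 in HepG2 cells. Of 144 lincRNAs tested (37 were not), 43 passed an adjusted p under 0.05, 20 higher in Ls174 and 23 higher in HepG2 cells. They were 29.9% of those tested, against 23.5% of all genes (9.33% higher in Ls174 and 14.2% higher in HepG2), and since the members were chosen partly by a high level in a line, this difference is not a result about lincRNAs. At the thresholds of the study 59 differed (41.0%, against 35.0%), and the groups did not overlap for 72 (50.0%, against 42.6%). Over the lincRNAs tested the median log2 fold change (Ls174 against HepG2) was -0.19, and over all genes -0.04 with TMM, 0.17 with library size alone and 0.07 with upper-quartile scaling. Leaving out each library in turn gave 38 to 52 calls.

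In all 6 HepG2 libraries, treated and untreated, 7 lincRNAs had no count: SNHG15, RP11-165A20.3, LINC00675, CTB-175P5.4, RP11-38P22.2, LINC00960 and RP11-22L13.1. In all 6 Ls174 libraries 4 had none: RP11-214O1.2, LINC02525, RP11-511B23.1 and AC022816.2. Such lincRNAs reached the count limit for inclusion through the other line alone, and no share over all genes is given beside them. Their numbers are therefore not a result about lincRNAs as a class. A count of 0 allows up to 3 counts, which is 0.814 to 1.81 CPM in a HepG2 library and 0.776 to 1.43 CPM in an Ls174 library, counting error only, as the reads carry no molecular identifiers.

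**Figure D5:**
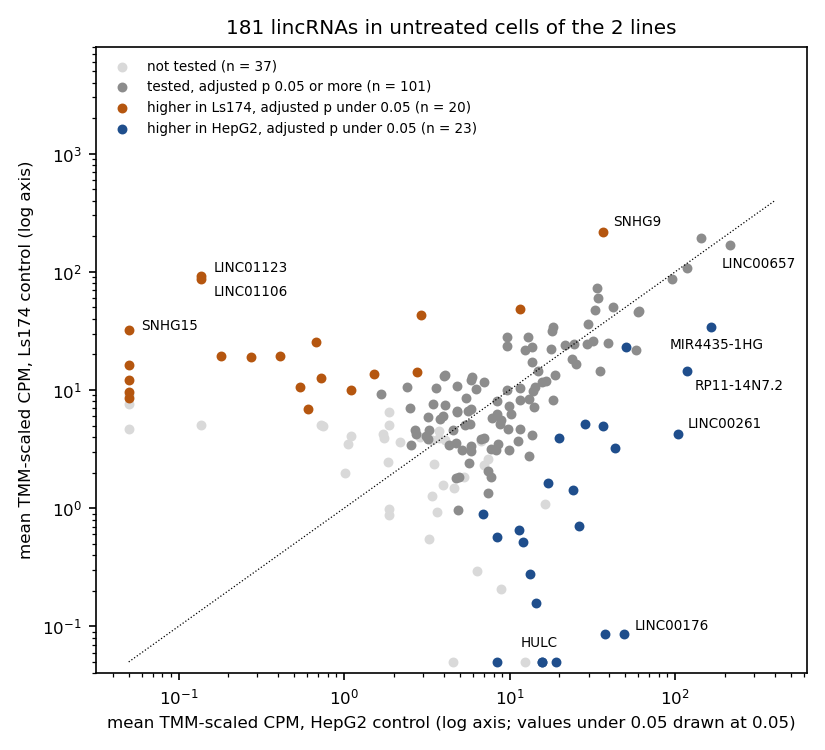
Mean level (TMM-scaled CPM, n = 3, log axes) of each of the 181 lincRNAs in HepG2 control (x axis) and Ls174 control cells (y axis), with values under 0.05 drawn at 0.05 and a dotted line of equal levels. Orange points were higher in Ls174 (20) and blue points higher in HepG2 cells (23), while LINC00657 lies near the line.

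Among the snoRNA hosts, SNHG15 had 31.4, 33.8 and 32.3 CPM in Ls174 controls and no count in HepG2 controls, and was at least 17.95-fold higher in Ls174 cells (adjusted p = 0.000259). Its 3′ region on chromosome 7 has the AATAAA printed above and no near-identical copy. With HME it had 53.6, 42.3 and 47.0 CPM in Ls174 cells (log2 fold change against control 0.53, adjusted p = 0.307). SNHG9 had 31.7, 25.4 and 52.9 CPM in HepG2 and 247, 202 and 197 CPM in Ls174 controls, far apart (log2 fold change 2.54, SE 0.37, adjusted p = 0.00118). NDUFB10, which lies upstream of it, had a log2 fold change of -0.24 (adjusted p = 0.815). SNHG8 (log2 fold change 0.40, adjusted p = 0.398) and EPB41L4A-AS1 (1.10, adjusted p = 0.163) did not pass.

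LINC01123 and LINC01106 are a second pair of near-copies on chromosome 2. By the same limits of identity and length, the LINC01106 region had 9 other places in the genome, and their part in its counts was not tested. LINC01123 had 0, 0 and 1 counts in HepG2 and 102, 340 and 476 counts in Ls174 controls, a ratio of 775 (95% exact counting interval 139 to 30637, adjusted p = 0.000114), and LINC01106 had a ratio of 744 (133 to 29403). The main region of LINC01123 (chr2:110753718-110753914, plus strand) recurs without a difference at chr2:111132630-111132826, and 103 bases of that copy fall inside the LINC01106 region, so that the counts of this pair cannot be told apart either. Both hold the same hexamer, that of LINC01106 partly outside the central bases.
LINC01123 (chr2:110753807-110753836, plus strand): tttccaaaataaAATAAAcaaaaggggctt
LINC01106 (chr2:111132708-111132737, minus strand): tttccaaaataaAATAAAcaaaaggggctt
With HME in Ls174 cells LINC01123 went from 92.1 ± 38.9 to 55.8 ± 1.40 CPM (log2 fold change -0.74, adjusted p = 0.347).

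Further lincRNAs at 0 in HepG2 controls were RP11-165A20.3 (at least 9.06-fold higher in Ls174 cells, 16.4 ± 6.10 CPM), CTB-175P5.4, now LINC01224 (at least 6.76-fold, 12.3 ± 8.75 CPM) and LINC00675, now TMEM238L (at least 5.32-fold, 9.64 ± 5.04 CPM). Each of them passed the test, with adjusted p values of 0.00122, 0.00392 and 0.00365. CRNDE, a lincRNA described as raised in colon tumours, did not differ by the test, at 34.3 ± 16.3 CPM in HepG2 and 59.8 ± 2.48 CPM in Ls174 controls (log2 fold change 0.77, adjusted p = 0.234).

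On the HepG2 side, HULC, a lincRNA described as raised in liver cancer, had 21.7, 9.66 and 15.6 CPM in HepG2 controls and no count in Ls174 controls. It was at least 10.97-fold higher in HepG2 cells (adjusted p = 0.00101), and HME left it at 13.4 ± 6.25 CPM there (log2 fold change -0.20, adjusted p = 0.807). LINC00261 had 161, 42.3 and 107 CPM in HepG2 and 0, 4.92 and 7.76 CPM in Ls174 controls, without overlap (log2 fold change -4.52, SE 0.86, adjusted p = 0.00433). Its neighbour FOXA2 was lower in Ls174 cells too (log2 fold change -1.31, SE 0.33, adjusted p = 0.0191). LINC00176 had a HepG2 to Ls174 ratio of 374 (66.7 to 14834, against 1 count in Ls174 controls) and RP11-242J7.1, now LINC02365, of 328 (58.4 to 13009, likewise against 1 count).

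RP11-214O1.2 and LINC02525 differed together with a coding gene that spans them or lies upstream on the same strand. RP11-214O1.2 had 21.2, 15.1 and 20.9 CPM in HepG2 controls and none in Ls174 controls (at least 13.4-fold, adjusted p = 0.000546), and it lies within the span of HS3ST3B1, a heparan sulfate sulfotransferase gene with a log2 fold change of -5.44 (adjusted p = 0.000822). LINC02525, which the files list under an older clone name, had 12.2, 20.5 and 14.4 CPM and none (at least 11.01-fold, adjusted p = 0.000987), and TUBB2B, a tubulin gene 40581 bases upstream, had a log2 fold change of -6.17 (adjusted p = 0.00154). Both coding genes were higher in the line that had the lincRNA, as 14.2% of all genes tested were. They are examples, and how many other lincRNAs differed together with such a gene was not counted.

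RP11-14N7.2 was among the most abundant lincRNAs of HepG2 controls, with 102, 129 and 121 CPM against 8.56, 17.2 and 17.9 CPM in Ls174 controls (log2 fold change -3.03, SE 0.39, adjusted p = 0.000607). Its region on chromosome 1 has an identical copy elsewhere in the genome. TP53TG1 (log2 fold change -2.40, SE 0.56, adjusted p = 0.0126), AC084018.1 (-2.43, SE 0.73, adjusted p = 0.0392) and MIR4435-1HG (-2.30, SE 0.37, adjusted p = 0.0019) were higher in HepG2 cells as well. The adjusted p of TP53TG1 was 0.0528 with a replicate block and 0.0575 and 0.0508 without Ls174 control 2 or 3. That of AC084018.1 was 0.065 with library size scaling and 0.0674, 0.140 and 0.102 without HepG2 control 1, HepG2 control 3 or Ls174 control 3. For LINC00152 the difference of -1.16 (SE 0.34, adjusted p = 0.0351) lost the threshold without HepG2 control 3 or without any 1 Ls174 control, with adjusted p values up to 0.134, and also with library size scaling (0.0819), upper-quartile scaling (0.0512), no filter (0.073) and a replicate block (0.133). MIR22HG, not tested here, had 36 counts in HepG2 and 0 in Ls174 controls, and was at least 3.17-fold higher in HepG2 cells.

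Several of the 10 most abundant lincRNAs did not pass the test between the lines. LINC00657 had 216 ± 17.7 CPM in HepG2 and 167 ± 37.4 CPM in Ls174 controls (log2 fold change -0.39, SE 0.33, adjusted p = 0.444). NCBP2-AS2 had 96.3 ± 17.0 and 87.5 ± 3.95 CPM (log2 fold change -0.15, adjusted p = 0.755), and RP11-304L19.5 had 118 ± 74.1 and 108 ± 28.3 CPM (log2 fold change -0.18, adjusted p = 0.839). For LINC00493 the log2 fold change was -0.38 (SE 0.61, adjusted p = 0.704). A p over the threshold does not show that the levels are equal, and the SE of each of these values leaves room for a difference.

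The proteins that process and remove such RNAs were given as lists of coding genes written from general knowledge. Of 20 genes tested of the nuclear RNA exosome and its adaptors, which degrade many non-coding RNAs, 0 passed an adjusted p under 0.05 with HME in HepG2 or in Ls174 cells, and 2 and 1 were higher at the thresholds of the study. The most abundant, EXOSC6, had a log2 fold change of -0.32 (adjusted p = 0.592) in HepG2 cells and was lower in Ls174 than in HepG2 controls (-1.43, adjusted p = 0.00785). PAPD5, a poly(A) polymerase that marks RNA for decay, had a log2 fold change of 1.17 in HepG2 cells (adjusted p = 0.0599). Of 21 genes of cleavage and polyadenylation 0 passed with HME in either line, with 1 higher and 2 lower at the thresholds of the study in HepG2 and 1 lower in Ls174 cells. PABPN1, which binds nuclear poly(A) tails, had a log2 fold change of -1.45 (adjusted p = 0.0896) in HepG2 cells, while NUDT21 stood at -0.37 (adjusted p = 0.489) and PAPOLA, the main poly(A) polymerase, at 0.23 (adjusted p = 0.709). Of 12 paraspeckle and speckle proteins 0 passed either threshold with HME in either line, with HNRNPK at -0.27 (adjusted p = 0.725) and SFPQ at 0.17 (adjusted p = 0.844) in HepG2 cells.

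LincRNAs of known roles were also counted by list, each list holding the members that general knowledge ties to a role. Among 3 tested lincRNAs linked to stress, hypoxia or NRF2 (NEAT1, MIR22HG and LINC00152), 1 rose with HME in HepG2 cells, LINC00152. It is also the 1 that rose of 2 linked to colon cancer and of 2 linked to epithelial to mesenchymal transition, so these lists share the same call. Of all genes tested with HME, 3.31% were called in HepG2 (2.77% higher) and 1.18% in Ls174 cells. Lists this short cannot be set against such shares. The other lists (nuclear body, cytosolic, snoRNA host, p53, liver, developmental and X-inactivation centre RNAs) held 0 calls at an adjusted p under 0.05 with HME in either line, and the miRNA hosts held 1, MIR4435-1HG in HepG2 cells. Between the lines, 2 of 2 liver lincRNAs (HULC and LINC00261) were higher in HepG2 and 2 of 4 snoRNA hosts (SNHG9 and SNHG15) in Ls174 controls. Of 3 colon lincRNAs, LINC00675 was higher in Ls174 and LINC00152 in HepG2 controls. Over all genes tested, 14.2% were higher in HepG2 and 9.33% higher in Ls174 controls. As members were chosen partly by a high level in a line, these counts are not a result about the lists. The liver list of 20 RNAs, 12 with counts, summed to 121 to 200 CPM in HepG2 and 91.3 to 145 CPM in Ls174 controls.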

How the data were processed

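The 12 deposited tables, 1 per library, hold read counts for 144910 3′ regions with gene name and biotype. The authors made these counts from QuantSeq 3′ libraries for Ion Torrent sequencing, aligned to hg19 (GRCh37) with HISAT2 and analysed with metaseqR2, and the submitters' processing notes also name Bowtie2 and Trimmomatic. Counts were summed over the regions of each gene. Genes were tested with edgeR 4.0.16 (R 4.3.3) by the quasi-likelihood test with TMM scaling, separately for each comparison, after filterByExpr (minimum count 10, total 15), with Benjamini-Hochberg adjustment over all genes tested. The test was tried on simulated data. The SE of an edgeR fit is the absolute log2 fold change divided by the square root of the test's F statistic. It is unreliable for very small changes and for genes without counts in a group. The interaction was fitted on all 12 libraries. Alternatives used DESeq2 1.42.0, other scalings, no filter, a replicate block and libraries left out. Intervals for ratios of counts are exact at 95%, and floors are 3 counts. Both cover counting error only.

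Copies of regions were found with blastn 2.17.0. Samples were grouped by their labels. Members and lists were chosen with earlier results of these data known. LincRNAs named by rule, 49 in all, were the 10 most abundant, the members of the role lists, those called in the interaction, those next to the limit of 100 counts and, for each comparison, the 5 largest increases and decreases with non-overlapping groups at an adjusted p under 0.05, filled up by p at the thresholds of the study. Those named for their values beyond this rule were SNORD3C, RP11-427H3.3, LA16c-83F12.6, LINC00960, RP11-38P22.2, RP11-22L13.1, RP11-511B23.1 and AC022816.2. One lincRNA is not reported here.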

Additional observations from a re-analysis of the deposited data

Results flagged for a closer look

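The effect of HME on LINC00152 differed between the lines by a test of the difference itself. The interaction was -2.46 on the log2 scale (Ls174 effect minus HepG2 effect, SE 0.36, adjusted p = 0.00643 by edgeR's quasi-likelihood test), with mean levels of 50.4 and 418 CPM in HepG2 control and HME cells and groups of 3 libraries that did not overlap in either line. With the near-identical MIR4435-1HG added to it, the interaction was -1.94 (adjusted p = 0.0339). With a replicate block the adjusted p for LINC00152 alone was 0.0654, over the threshold.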

How the results depend on the processing

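Of 1551 alternative values for 118 single results, 1392 kept direction and side of the threshold, 36 fell short of it, 76 newly passed it and 47, of 23 results, changed sign. None of these 23 passed an adjusted p under 0.05 in the reported fit, and none of the 47 values did. Library size scaling gave -0.13 for NCBP2-AS2, -0.041 for NEAT1 and -0.015 for SNHG8 with HME in HepG2 cells, and 0.12 for JPX, 0.044 for NCBP2-AS2, 0.11 for RP11-304L19.5 and 0.22 for SNORA76 between the lines. Upper-quartile scaling gave -0.029 for NCBP2-AS2 and -0.0043 for NEAT1 in HepG2 cells, and 0.044 for JPX and 0.066 for SNORA76 between the lines. DESeq2 gave -0.022 for NEAT1 in HepG2 cells, 1 fit of all libraries gave 0.028 for SNORA76 between the lines, and the replicate block gave 0.092 for AC084018.1 in Ls174 cells. With a library left out, log2 fold changes that crossed 0 with HME in HepG2 cells were those of CRNDE from -0.75 to 0.058, CTC-444N24.11 from -0.62 to 0.051, HULC from -0.62 to 0.088, MIR4458HG from -0.092 to 0.47, NCBP2-AS2 from -0.093 to 0.17, NEAT1 from -0.38 to 1.01 and RP11-137H2.6 from -0.54 to 0.083. Those with HME in Ls174 cells were AC084018.1 from -0.75 to 0.59, CTB-58E17.1 from -0.53 to 0.077, LINC00261 from -0.011 to 1.21, LINC00511 from -0.11 to 0.82, LINC00675 from -0.83 to 0.10, RP13-977J11.2 from -1.27 to 0.63 and U47924.30 from -0.86 to 0.043, and those between the lines were CTC-444N24.11 from -0.074 to 0.64, JPX from -0.40 to 0.37, LINC00493 from -0.80 to 0.0049, MALAT1 from -0.85 to 0.045, RP11-304L19.5 from -0.55 to 0.50, RP5-1085F17.3 from -0.25 to 0.55 and SNORA76 from -0.36 to 0.38. The cause was not tested. Counts of calls moved more. In HepG2 cells the 4 calls with HME became 12 in 1 fit of all 12 libraries, 17 with DESeq2, 7 with library size scaling and 24 without a filter, and 1 to 15 with a library left out (15 without HepG2 control 2). In Ls174 cells the 1 call became 6 with DESeq2, 7 without a filter and 0 to 18 with a library left out (18 without Ls174 control 1). Without members on or directly past a coding exon, a choice made after seeing the data, it was 0, with 22 lincRNAs at an unadjusted p under 0.05 before that removal. At the thresholds of the study the Ls174 calls ran from 6 to 16 higher and from 6 to 23 lower with a library left out (16 and 23 without Ls174 control 1, 14 higher without Ls174 control 3, 6 lower without Ls174 HME 2), and the lower ones numbered 21 without a filter and 7 without members on or past coding exons. Between the lines the 43 calls became 70 in 1 fit of all libraries. The interaction gave 2 calls with DESeq2, 5 without a filter, and 1 to 2 with a library left out (2 without HepG2 control 2 or Ls174 control 1).

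Deviations of same-numbered libraries from their group means had correlations from -0.377 to 0.110. Such deviations, in control groups where a library stood apart, cannot tell whether the numbers pair libraries. The replicate block is therefore given as an alternative. With a replicate block, lincRNA calls with HME were 4 in HepG2 cells, among them LINC00341 (-2.74, adjusted p = 0.0498) and not CTB-58E17.1 (adjusted p = 0.0781), and 0 in Ls174 cells, 36 between the lines and 0 for the interaction, where over all genes they went from 134 to 0 in Ls174 cells and from 84 to 16 for the interaction. Depth limits the rarer lincRNAs: 57 and 43 of them could not be tested with HME in HepG2 and Ls174 cells.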
